A study of Mus musculus with 12 samples.

Results

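The 10 genes described here encode the actins, the proteins that line or pull on actin filaments, and the transcription factor that controls many of them. They were followed in 3T3-L1 cells, a mouse embryonic fibroblast line that can be turned into adipocytes. They are the actins Acta2, Actb and Actg1, the tropomyosins Tpm1 and Tpm2, the contractile-apparatus genes Tagln, Cnn1 and Myl9, the transcription factor gene Srf and the focal adhesion gene Vcl. A member was every non-control probe of the array whose transcript accession belonged to one of these genes, which gave 19 probes for the 10 genes, out of 41174 probes and 18217 named genes in all.

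The study asked which mRNAs move onto or off ribosomes in the first hours of adipogenesis. Confluent cells were harvested untreated (0 h) or 6 h after a change to fetal bovine serum medium with 0.5 mM isobutylmethylxanthine, 1 µM dexamethasone and 5 µg/ml insulin. Their lysates were separated on sucrose gradients into a pool of lighter fractions, called non-polysomal, and a pool of heavier fractions, called polysomal. The 4 groups are non-polysomal 0 h (np0), polysomal 0 h (p0), non-polysomal 6 h (np6) and polysomal 6 h (p6), each with 3 biological replicates on 1-colour Agilent arrays. All groups come from the same cell line. The 0 h cells had grown in newborn bovine serum without the hormones, so serum and hormones changed together and their parts cannot be told apart. In a culture of many cells, fewer cells that express a gene and less RNA per cell cannot be told apart either.

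Actin monomers assemble into filaments, and tropomyosins wind along these filaments and set which other proteins can bind them. Myosin light chains, calponin and transgelin belong to or sit on the contractile bundles, and vinculin ties the bundles to integrins at focal adhesions. Serum response factor, the product of Srf, binds a DNA element called the CArG box in front of many of these genes. It works with myocardin-related cofactors, which are held back by free actin monomers, or with ternary complex factors of the immediate-early genes. Fibroblasts are rich in stress fibres, and adipocytes lose most of them as they round up and fill with lipid.

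The CArG box is 10 bases long, starts with CC, ends with GG and holds only A and T between them. Its pattern reads as the same pattern on the opposite strand, so 1 search covers both. Promoter windows of 300 bases, from 250 bases before to 50 bases after the gene start, were matched for 8 of the 10 genes (RefSeq, GRCm38.p6). Actb and Tagln had no entry. An exact box lay in the windows of 4 of the 8, Actg1, Myl9, Srf and Vcl, against 1.63% of all 32851 windows. With 1 inner G or C allowed, Acta2 joined them, giving 5 of 8 against 9.98% of all windows. No box of either kind was in the windows of Tpm1, Tpm2 or Cnn1. The stretches below show the boxes in capitals, because they are the sequence by which several of these genes are grouped. Each is written 5′ to 3′ on the strand of its gene.
Actg1, chr11:120348556-120348605, minus strand, box 90 bases before the start: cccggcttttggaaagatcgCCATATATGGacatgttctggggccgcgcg
Srf, chr17:46556215-46556244, minus strand, first box 82 bases and second box 62 bases before the start: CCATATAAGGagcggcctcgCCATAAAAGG
Vcl, chr14:20929151-20929200, plus strand, box 227 bases before the start: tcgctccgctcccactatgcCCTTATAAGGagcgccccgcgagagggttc
Myl9, chr2:156775283-156775332, plus strand, box 161 bases before the start: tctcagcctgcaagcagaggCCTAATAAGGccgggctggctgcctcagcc
Acta2, chr19:34255428-34255477, minus strand, box with 1 inner C 84 bases before the start: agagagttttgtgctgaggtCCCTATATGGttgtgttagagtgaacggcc
The Acta2 window held a second box of the looser kind 34 bases before the start, and the Myl9 window one 99 bases before it. A match is a description of letters and was not tested as a binding site.

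Values are log2 background-subtracted intensities, put on a common scale by 10 spike-in transcripts added to every RNA. Differences are given in log2 units with the standard error of limma's fit, and adjusted p-values are limma's with Benjamini-Hochberg correction over all probes. The M-value is the change over 6 h in the polysomal fraction minus that in the non-polysomal fraction. A probe's brightness depends on its own sequence, so levels are compared between groups for 1 probe and never between probes. For a gene with several probes the brightest is described, and for the members the others are given by their range.

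Of the non-control probes, 55.7 to 60.8% were well above background per array, and the number of arrays limits the precision. The spike-in offsets were 0.0952 ± 0.0707 in np0, 0.137 ± 0.0199 in p0 and 0.113 ± 0.0397 in np6 but -0.345 ± 0.135 in p6 (SD, n = 3), so the p6 arrays were moved up relative to the others. The shift of the p6 arrays differed between spike-ins, from -0.91 to -0.76 for the 5 dimmest and from -0.28 to -0.02 for the 5 brightest. The mean log2 signals of the 5 dimmest ran from 7.82 to 16.80 and those of the 5 brightest from 18.29 to 19.07. The highest reading of any member probe was 17.20, below all of the 5 brightest. Which offset suits probes of a given brightness was not tested. Under the main scaling the median change of all probes was 0.54 for polysomal RNA and 0.04 for non-polysomal RNA, and the median M-value was 0.49. With each array scaled to its 75th percentile these medians were 0.05, -0.02 and 0.06. That scaling moves every probe of an array by the same amount, and it took the median difference between the fractions from 0.15 to -0.74 at 0 h and from 0.68 to -0.63 at 6 h. Sizes, and some calls and directions of single genes, therefore hold for the spike-in scaling. Probes of the fibroblast markers Pdgfra, Pdgfrb, Thy1, Dlk1, Col1a1, Col1a2, Vim and S100a4 were well above background on every array (12 of 12 probes in each group). Of 7 probes for mature adipocyte markers, 3 were so in each group (Adipoq, Cidec and Plin1). The signal summed over all 7 probes was 71.6 to 116 in np0, 166 to 182 in p0, 76.6 to 84.5 in np6 and 228 to 237 in p6. Of 10 probes for striated muscle, 3 were above background in each group (Myod1, Tnnt2 and Tnnt3). All 10 probes summed to 435 to 482 in np0, 248 to 266 in p0, 726 to 847 in np6 and 425 to 471 in p6. No macrophage probe of 5 was above background on all arrays of a group, and of 4 endothelial probes only Cdh5 was, in p6. The part of other cell types in the results was not tested.

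Under the spike-in scaling most actin and contractile mRNAs were higher in the polysomal fraction after 6 h. The exception was the single probe of beta-actin. Of the 19 probes, 18 rose from p0 to p6 and 1, that of Actb, fell. Over all probes 50.7% rose and 11.7% fell in this comparison. The median change of the member probes was 1.29, against 0.54 over all probes, and 17 of the 19 lay above that median. All 19 were well above background on every array of at least 1 group, called detected here, as were 25025 of all probes. Of these 25025, 14183 rose and 4658 fell, with a median of 0.53. The change of the member probes had the same sign on all 3 slides for 19 of 19. These 19 probes stand for 10 genes, so several count the same gene. The members were chosen with earlier results of these data known, so the comparison with all probes is a description. With quantile normalization only 10 probes rose and 4 fell, while 13 of 19 still lay above the median of all probes. The non-polysomal fraction was mixed: 9 probes rose and 5 fell, against 20.6% and 19.6% of all probes, with a median of 0.21 against 0.04. Of the 25025 detected probes 8173 rose and 7721 fell there, with a median of -0.01.

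**Figure D1:**
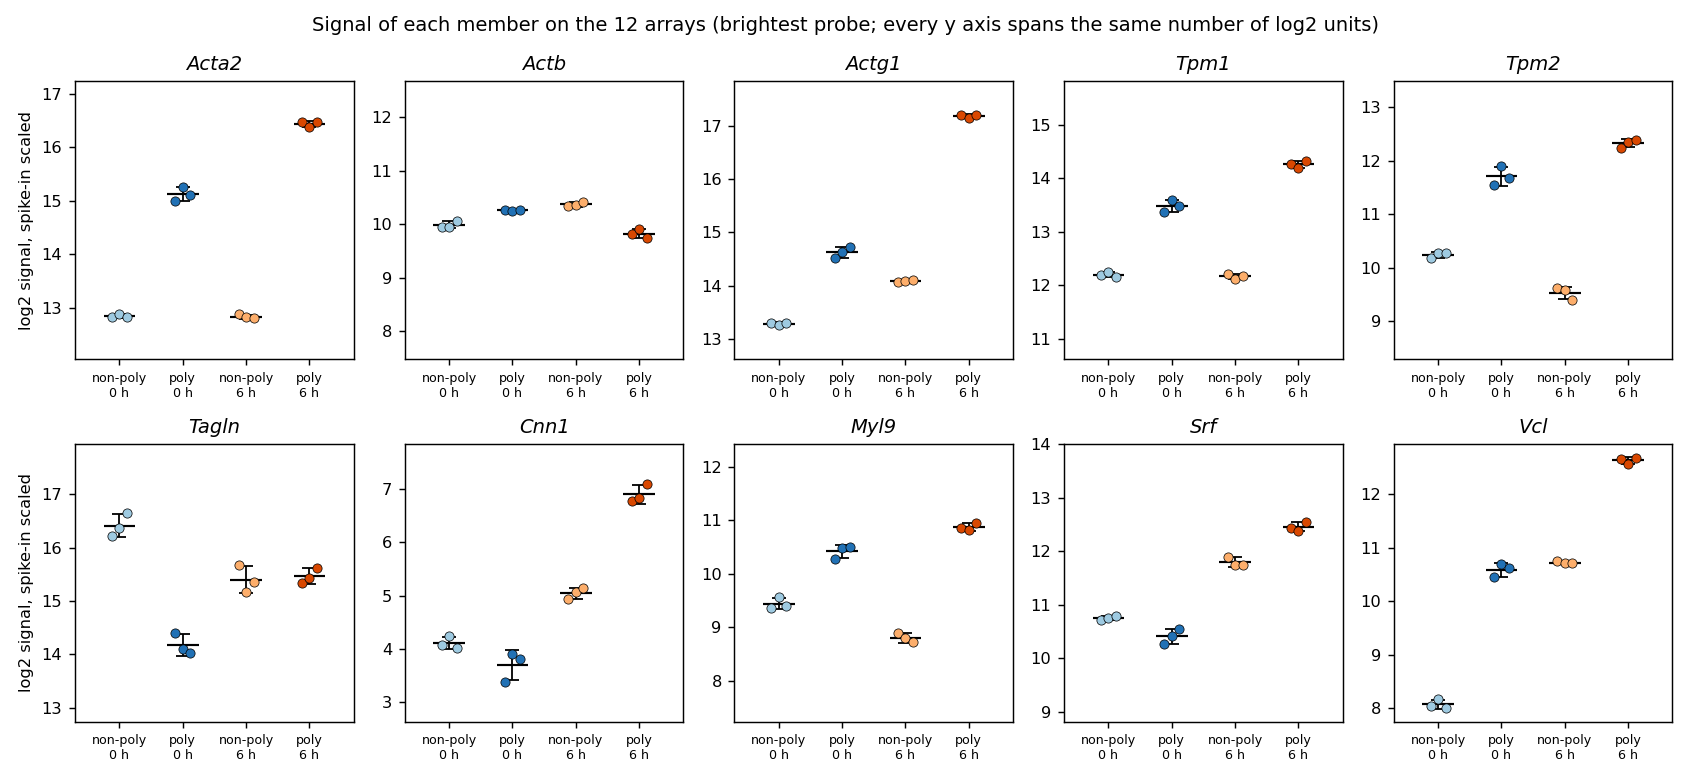
Spike-in scaled log2 signal (y axis) of the brightest probe of each gene on the 12 arrays, by group (x axis); points are arrays, bars the mean and SD of 3 arrays. The polysomal 6 h arrays are the highest of the 4 groups for every gene except Actb, where they are the lowest, and Tagln, where non-polysomal 0 h is highest.

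Acta2 encodes smooth muscle alpha-actin, a mark of contractile fibroblasts. Its brightest probe, printed in 10 spots per array, read 12.82, 12.89 and 12.82 in np0 and 12.87, 12.82 and 12.81 in np6. It read 15.00, 15.26 and 15.11 in p0 and 16.47, 16.37 and 16.47 in p6. The non-polysomal groups overlapped, and both polysomal groups stood above them and apart from each other. From p0 to p6 the signal rose by 1.32 ± 0.08 (2.49-fold, adjusted p = 2.4e-07), but the difference was -0.01 with quantile normalization. In the non-polysomal fraction the difference was -0.01 ± 0.08 (95% interval -0.18 to 0.16, adjusted p = 0.928), and -0.29 with quantile normalization (adjusted p = 9.77e-05). The polysomal signal exceeded the non-polysomal one 4.85-fold at 0 h and 12.2-fold at 6 h, log2 differences of 2.28 and 3.61 that came to 1.39 and 2.30 with the 75th percentile. The other Acta2 probes rose by 1.29 and 2.48 in the polysomal fraction, and by 0.40 and 0.84 in the non-polysomal fraction, where the smaller rise missed the threshold without replicate 3 (0.33, adjusted p = 0.102).

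Actb encodes cytoplasmic beta-actin, which the study used among other genes to normalize q-PCR and, as protein, as reference for Western blots. Its single probe, also in 10 spots, read 9.95, 9.95 and 10.07 in np0 and 10.26, 10.25 and 10.27 in p0. At 6 h it read 10.35, 10.35 and 10.42 in np6 and 9.82, 9.90 and 9.74 in p6. No 2 groups overlapped, and the order from lowest to highest was p6, np0, p0, np6, with p6 the highest group for 8 of the other 9 genes. The polysomal signal fell by 0.44 (SE 0.07, adjusted p = 0.000323) while the non-polysomal signal rose by 0.38 ± 0.07 (adjusted p = 0.00105). The polysomal fall was -0.02 (adjusted p = 0.882) when a line was fitted to the spike-ins and -0.04 (adjusted p = 0.713) with the 5 dimmest spike-ins, and -0.92 with the 75th percentile. At 0 h the polysomal signal was 0.27 ± 0.07 above the non-polysomal one (adjusted p = 0.00659), a difference that turned to -0.62 with the 75th percentile or quantile normalization and missed the threshold without replicate 1 (adjusted p = 0.113) or replicate 2 (adjusted p = 0.0708), with the fitted line (adjusted p = 0.107) and with the 5 dimmest spike-ins (adjusted p = 0.105). At 6 h the polysomal signal was lower by 0.55 (adjusted p = 3.72e-05), a difference of -0.12 (adjusted p = 0.237) when a line was fitted to the spike-ins, -0.17 (adjusted p = 0.0989) with the 5 dimmest and -1.86 with the 75th percentile.

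Actg1 encodes the other cytoplasmic actin, gamma-actin. It read 13.31, 13.26 and 13.30 in np0 and 14.52, 14.64 and 14.72 in p0. After induction it read 14.08, 14.10 and 14.11 in np6 and 17.19, 17.14 and 17.20 in p6. All 4 groups were apart, and the step from p0 to p6 was wider than any other between neighbouring groups. The polysomal signal rose by 2.55 ± 0.07 (5.86-fold, adjusted p = 2.19e-09) and the non-polysomal signal by 0.80 ± 0.07 (1.75-fold, adjusted p = 5.43e-06). The second probe rose by 2.46 and 0.47. Both cytoplasmic actins thus gave called changes in the polysomal fraction, in opposite directions under the spike-in scaling. Transcripts of the actin genes are alike in sequence, the files give no probe sequences, and how far probes of different actins share signal was not tested.

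The tropomyosin genes showed smaller polysomal changes than Acta2 or Actg1. Tpm1 read 12.19, 12.24 and 12.15 in np0 and 13.37, 13.59 and 13.47 in p0. It read 12.21, 12.12 and 12.17 in np6 and 14.27, 14.20 and 14.32 in p6. The non-polysomal groups overlapped and p6 was highest. The polysomal rise was 0.78 ± 0.07 (1.72-fold, adjusted p = 8.39e-06), and -0.21 with quantile normalization. The non-polysomal difference was -0.03 ± 0.07 (95% interval -0.20 to 0.14, adjusted p = 0.824), and -0.28 with quantile normalization (adjusted p = 6e-05). The other bright probes of Tpm1 rose by 1.18 and 1.00 in the polysomal fraction, the latter by 0.14 with quantile normalization (adjusted p = 0.15). A dim probe was not well above background on any non-polysomal array and above it on 2 of 3 arrays of p0. Its polysomal change of 1.24 (adjusted p = 0.00439) was not called without replicate 1 (adjusted p = 0.0714), with the 75th percentile (adjusted p = 0.0638) or with quantile normalization (adjusted p = 0.076). The mean polysomal signal of that probe was set against the lowest signal well above background on the non-polysomal arrays. It lay 1.19-fold above it at 0 h and 2.73-fold above it at 6 h under the main scaling. With normexp the difference between the fractions at 0 h was 0.15 and not called (adjusted p = 0.164).

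Tpm2, the beta-tropomyosin gene, moved in opposite directions in the fractions. It read 10.18, 10.28 and 10.28 in np0 and 9.61, 9.58 and 9.39 in np6. In the polysomal fraction it read 11.55, 11.90 and 11.68 at 0 h and 12.25, 12.36 and 12.39 at 6 h. The groups did not overlap, with np6 lowest and p6 highest. The non-polysomal signal fell by 0.72 (SE 0.10, adjusted p = 0.000245). The polysomal signal rose by 0.62 ± 0.10 (1.54-fold, adjusted p = 0.000495), a rise that was 0.14 (adjusted p = 0.199) with the 75th percentile, 0.22 (adjusted p = 0.196) with the 5 brightest spike-ins and -0.14 with quantile normalization. The second probe gave -0.68 and 0.57, the latter 0.08 (adjusted p = 0.369) with the 75th percentile and -0.17 with quantile normalization.

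Tagln encodes transgelin, an actin-bundling protein of smooth muscle and stress-fibre-rich fibroblasts. Its brighter probe read 16.22, 16.37 and 16.65 in np0 and 14.41, 14.10 and 14.03 in p0. It read 15.67, 15.17 and 15.35 in np6 and 15.33, 15.44 and 15.62 in p6. The 6 h groups overlapped, while at 0 h every polysomal array lay below every non-polysomal one. Over 6 h the polysomal signal rose by 1.29 ± 0.16 (2.44-fold, adjusted p = 7.75e-05), while the non-polysomal signal fell by 1.01 (adjusted p = 0.000561). With quantile normalization the polysomal rise was 0.18 (adjusted p = 0.527). The dimmer probe read 6.12, 6.31 and 6.30 in np0 and 7.19, 7.46 and 7.24 in p0, then 5.70, 5.92 and 6.00 in np6 and 8.35, 8.34 and 8.44 in p6. It gave the same directions over time, a polysomal rise of 1.08 and a non-polysomal fall of 0.37, although that fall missed the threshold without any 1 of the replicate numbers (adjusted p from 0.0706 to 0.1), with normexp (-0.15, adjusted p = 0.21) and with the 5 brightest spike-ins (-0.32, adjusted p = 0.0617). The probes differed on the fractions: at 0 h the polysomal signal was lower by 2.23 on the brighter probe and higher by 1.05 on the dimmer one, where the 75th percentile gave 0.17 (adjusted p = 0.136). At 6 h the brighter probe gave 0.07 ± 0.16 (adjusted p = 0.733), which turned to -1.24 with the 75th percentile and -0.87 with quantile normalization, and the dimmer one 2.50. The fraction in which Tagln mRNA was enriched is therefore not settled by these arrays.

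Cnn1 encodes calponin, which binds actin and tropomyosin. It read 4.07, 4.24 and 4.03 in np0 and 3.39, 3.90 and 3.81 in p0. It read 4.93, 5.07 and 5.13 in np6 and 6.77, 6.82 and 7.09 in p6. All 12 readings were well above background. The 6 h arrays stood above the 0 h arrays in both fractions. Its polysomal rise, 3.19 ± 0.14 (9.15-fold, adjusted p = 4.24e-08), was the widest of the 19 probes under the main scaling. It came to 1.87 in the authors' deposited values and 1.44 with normexp background correction, both more than 1.5 times smaller. The non-polysomal rise was 0.93 ± 0.14 (1.91-fold, adjusted p = 0.000403), and 0.38 and 0.27 in the same sets of values. At 0 h the polysomal signal was lower by 0.41 (adjusted p = 0.0349), a call lost without any 1 of the replicate numbers (adjusted p from 0.0752 to 0.17), with the 5 brightest spike-ins (adjusted p = 0.124), in the deposited values (adjusted p = 0.213) and with normexp (adjusted p = 0.481), and at 6 h it was higher by 1.85, or by 0.54 with the 75th percentile.

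Myl9, a regulatory myosin light chain gene, behaved like Tpm2 in direction. It read 9.37, 9.56 and 9.40 in np0 and 8.89, 8.80 and 8.71 in np6. In the polysomal fraction it read 10.28, 10.48 and 10.50 at 0 h and 10.86, 10.81 and 10.95 at 6 h. All groups were apart, with the polysomal groups above the non-polysomal ones at both times. The 0 h difference of 0.98 came to 0.09 (adjusted p = 0.159) with the 75th percentile and 0.10 (adjusted p = 0.134) with quantile normalization. The non-polysomal fall was by 0.64 (adjusted p = 0.000205). The polysomal rise, 0.46 ± 0.09 (1.37-fold, adjusted p = 0.00161), was below the median of all probes, came to 0.06 (adjusted p = 0.747) with the 5 brightest spike-ins, and turned to -0.03 (adjusted p = 0.806) with the 75th percentile and to -0.15 with quantile normalization.

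Srf encodes the transcription factor itself. It read 10.72, 10.76 and 10.79 in np0 and 10.27, 10.42 and 10.55 in p0. It read 11.90, 11.75 and 11.75 in np6 and 12.44, 12.39 and 12.56 in p6. Every 6 h array was above every 0 h array. The polysomal signal rose by 2.05 ± 0.09 (4.15-fold, adjusted p = 3.07e-08) and the non-polysomal signal by 1.04 ± 0.09 (2.06-fold, adjusted p = 5.39e-06). At 0 h the polysomal signal was lower by 0.35 (adjusted p = 0.00664), a call lost without replicate 1 (adjusted p = 0.0699) or replicate 2 (adjusted p = 0.0771) and with the 5 brightest spike-ins (adjusted p = 0.0747). At 6 h it was higher by 0.66 ± 0.09 (adjusted p = 6.81e-05), and that direction turned with the 75th percentile (-0.65) and quantile normalization (-0.68), while the 5 brightest spike-ins gave 0.28 (adjusted p = 0.0648).

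Vcl encodes vinculin. It read 8.04, 8.16 and 8.01 in np0 and 10.45, 10.71 and 10.62 in p0. It read 10.75, 10.71 and 10.71 in np6 and 12.66, 12.56 and 12.68 in p6. The order np0, p0, np6, p6 held with no overlap, although p0 and np6 lay close together. The polysomal signal rose by 2.04 ± 0.08 (4.12-fold, adjusted p = 2.03e-08) and the non-polysomal signal by 2.65 ± 0.08 (6.27-fold, adjusted p = 1.08e-08). The second probe rose by 2.17 and 2.25. Vcl thus rose in both fractions on both probes. The polysomal signal was the higher at both times, 5.72-fold at 0 h and 3.76-fold at 6 h, log2 differences of 2.52 and 1.91 that came to 1.63 and 0.60 with the 75th percentile.

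**Figure D2:**
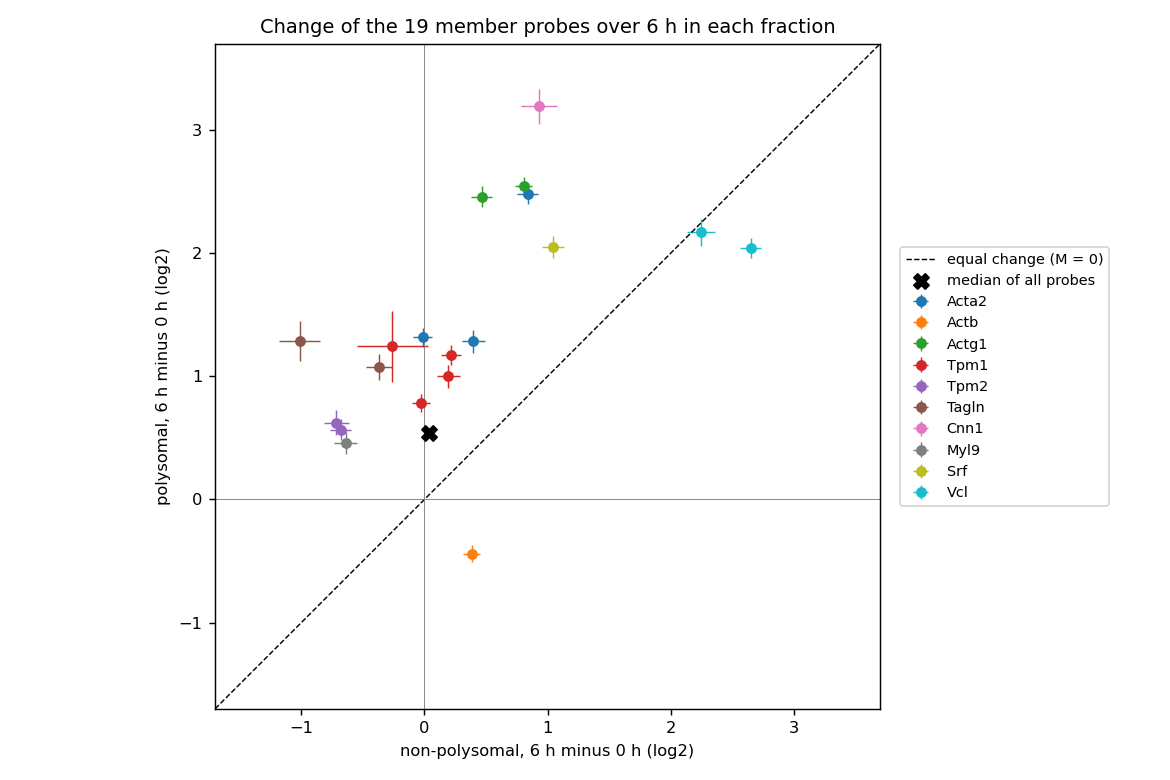
Change from 0 h to 6 h in the non-polysomal (x axis) and polysomal fraction (y axis) for the 19 member probes in log2 units; bars are standard errors, the dashed line marks equal change and the cross the median of all probes. Probes above the line have an M-value above 0, and the Actb probe and both Vcl probes lie on the other side of it under the main scaling, the dimmer Vcl probe within its standard error.

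M-values put the fractions together. Of the 19 probes, 16 had an M-value called above 0 and 2 below it, against 32% and 4.01% of all probes. Among the 25025 detected probes 11787 were called above 0 and 1568 below it, with a median of 0.48. The member median was 1.25 and that of all probes 0.49, and 16 of the 19 lay above the latter, also with the 75th percentile (16) and quantile normalization (16), whereas 11 did when a line was fitted to the spike-ins. Among the brightest probes the highest M-values were those of Tagln (2.30 ± 0.23, adjusted p = 6.62e-05), Cnn1 (2.26 ± 0.20, adjusted p = 3.46e-05) and Actg1 (1.74 ± 0.10, adjusted p = 2.32e-06). Tpm2 at 1.34 ± 0.15, Acta2 at 1.33 ± 0.11, Myl9 at 1.10 ± 0.13, Srf at 1.01 ± 0.12 and Tpm1 at 0.81 ± 0.11 followed. The call of Tpm1 was lost with quantile normalization (0.08, adjusted p = 0.3) and with the 5 brightest spike-ins (0.36, adjusted p = 0.132), and that of Cnn1 ranged from 1.16 with normexp to 3.11 with a line fitted to the spike-ins. The dimmer Tagln probe had 1.45, below both Actg1 probes (1.74 and 1.99), and the brighter one 1.38 with quantile normalization. Actb had -0.82 ± 0.10 (adjusted p = 0.000154) and the brighter Vcl probe -0.61 ± 0.12 (adjusted p = 0.00268). The dimmer Vcl probe gave -0.08 ± 0.16 (adjusted p = 0.719), from -0.85 with quantile normalization (adjusted p = 0.00109) to 0.70 with normexp (adjusted p = 1.89e-05), with 0.51 in the authors' deposited values (adjusted p = 0.00302), so its direction is not settled. The call of the brighter Vcl probe was lost without replicate 3 (adjusted p = 0.075) and with the 5 dimmest spike-ins (adjusted p = 0.195). The same M-value could come from unlike changes. For Tpm2, Myl9 and Tagln the signal fell in the non-polysomal and rose in the polysomal fraction, except that the polysomal rise of Tpm2 and Myl9 turned under the scalings named above. For Actg1, Cnn1 and Srf it rose in both, more in the polysomal fraction.

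The fractions themselves were compared at each time. At 0 h, 16 of the 19 probes were higher in the polysomal fraction and 3 were lower, those of Srf and Cnn1 and the brighter one of Tagln, against 37% and 15% of all probes. At 6 h, 17 were higher and 1, that of Actb, was lower, against 59.9% and 9.99%. The member medians were 1.34 at 0 h and 2.47 at 6 h, and those of all probes 0.15 and 0.68. Over the 25025 detected probes, which include all 19 members, the medians were 0.76 and 1.21. Of these, 14671 were higher and 5594 lower at 0 h, and 17592 and 3882 at 6 h. Among the members, only the Tagln probe was called lower at 0 h without replicate 1 or replicate 2. The differences of Srf (-0.29 and -0.35) and Cnn1 (-0.28 and -0.45) then missed the threshold. With the 75th percentile or quantile normalization 3 probes were called lower at 6 h, those of Actb and Srf and the brighter one of Tagln.

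**Figure D3:**
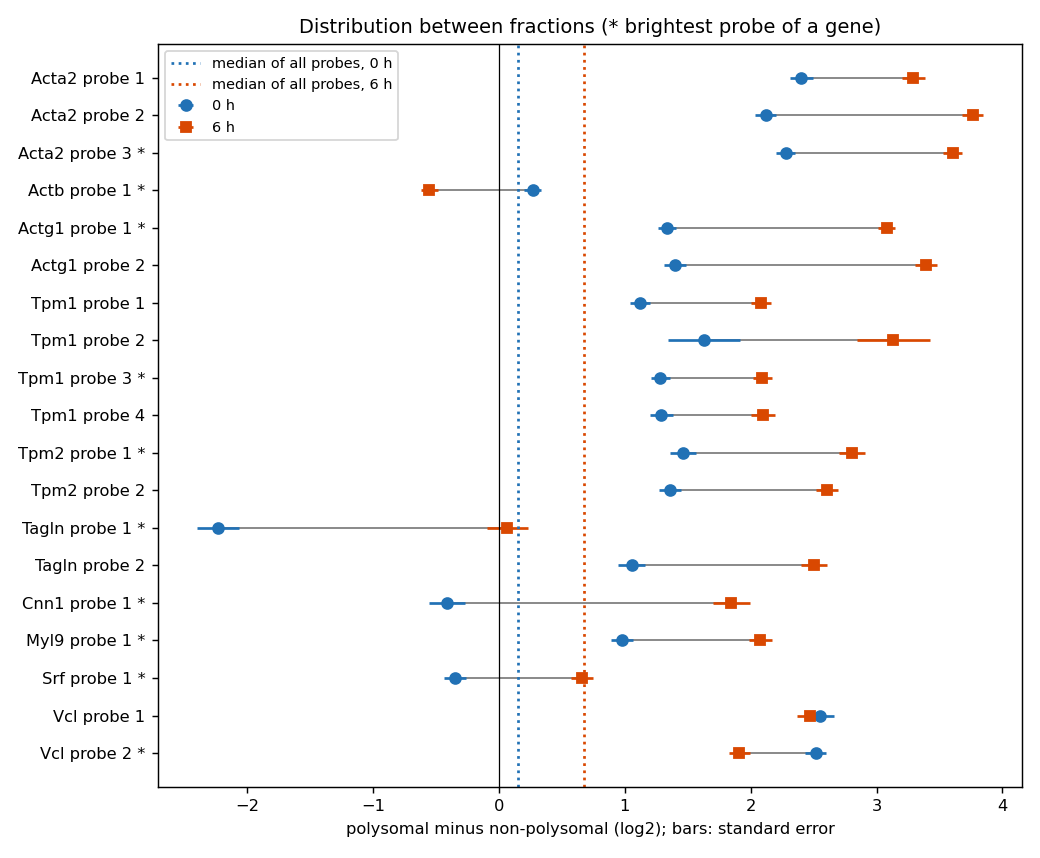
Polysomal minus non-polysomal log2 signal (x axis) at 0 h (circles) and 6 h (squares) for every member probe, with standard errors; asterisks mark the brightest probe of a gene and dotted lines the medians of all probes. Under the main scaling the signed difference was higher at 6 h than at 0 h on 16 probes and lower on the Actb and Vcl probes. Among the 16, the Srf and Cnn1 probes went from below 0 to above it, and the brighter Tagln probe from -2.23 to 0.07. The probes of Tagln lie on different sides of 0 at 0 h.

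Each member was also set against Actb on the same array, a ratio in which a shift of a whole array cancels. It cannot tell a rise of the member from a fall of Actb. All these ratios rest on the single Actb probe, and whether that probe follows Actb mRNA alone was not tested. In the polysomal fraction all 9 genes were higher relative to Actb at 6 h with no overlap between the 3 arrays of each time, as were 73.4% of all probes, and none was lower, as were 6.57%. The differences were 3.63 for Cnn1, 2.99 for Actg1, 2.49 for Srf, 2.48 for Vcl, 1.75 for Acta2, 1.72 for Tagln, 1.22 for Tpm1, 1.06 for Tpm2 and 0.90 for Myl9. In the non-polysomal fraction 4 were higher, as were 14% of all probes, by 2.27 for Vcl, 0.66 for Srf, 0.55 for Cnn1 and 0.42 for Actg1. The other 5 were lower, as were 51.4% of all probes, at -1.40 for Tagln, -1.10 for Tpm2, -1.02 for Myl9, -0.41 for Tpm1 and -0.40 for Acta2. With 3 arrays against 3 the exact two-sided permutation test cannot go below p = 0.1, the value of all 18 comparisons. On their brightest probes Vcl, Srf, Cnn1 and Actg1 were thus above their 0 h ratio in both fractions. The brightest probes of the tropomyosins, Tagln, Myl9 and Acta2 were above it in the polysomal and below it in the non-polysomal fraction. In the latter, Actb itself rose by 0.38, while the brightest probes of Acta2 and Tpm1 changed by -0.01 and -0.03. The other Acta2 probes rose there by 0.40 and 0.84, no less than Actb, so the lower ratio of Acta2 rests on 1 probe.

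**Figure D4:**
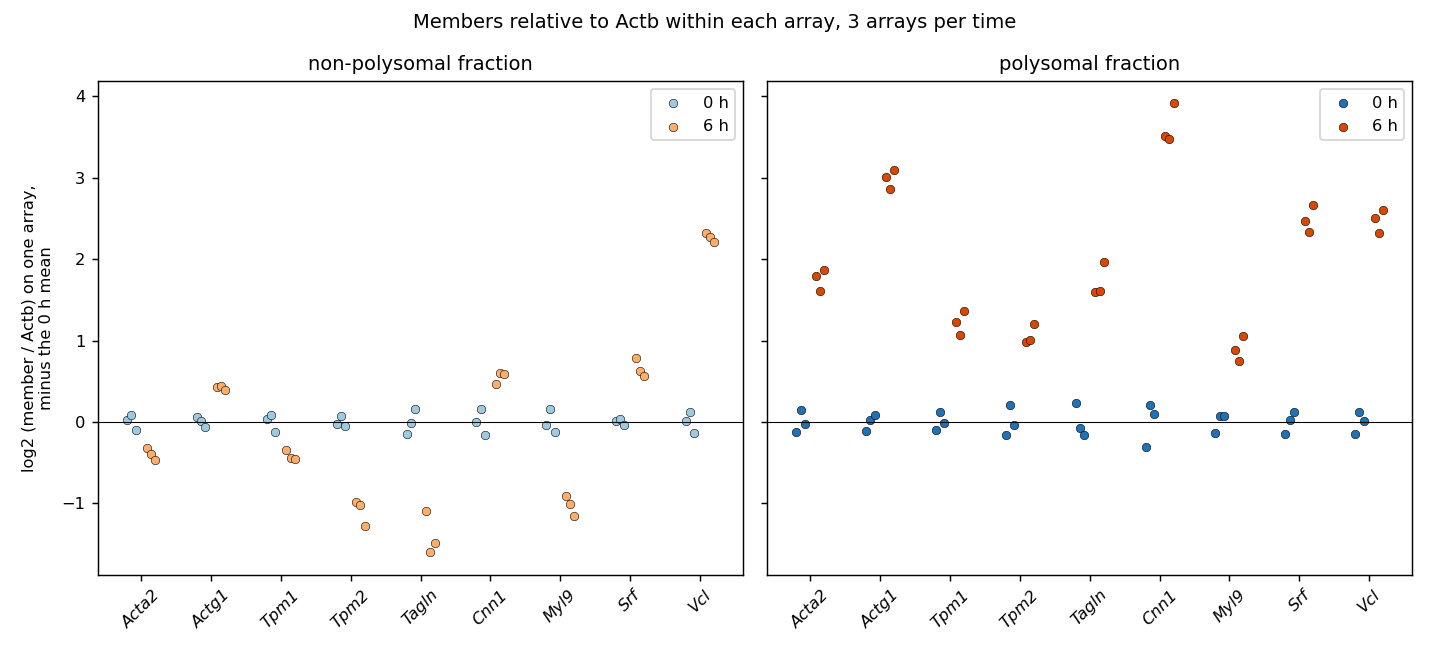
Log2 ratio of each gene's brightest probe to the Actb probe on the same array, minus the 0 h mean (y axis), for the non-polysomal (left) and polysomal fraction (right); each point is 1 of 3 arrays per time. All 9 genes are higher at 6 h in the polysomal panel, and 4 are higher and 5 lower in the non-polysomal one.

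How far the polysomal changes and M-values rest on the scaling is shown for 7 ways of preparing the values. Actb stayed the lowest of the 10 genes under all 7, in the polysomal change and in the M-value. The other genes did not all move by as much as the median of all probes, which went to 1.41 with the fitted line and to 0.01 with quantile normalization, where 11 and 13 of the 19 member probes lay above it. Relative to that median, the main scaling put Cnn1 at 2.66, Actg1 at 2.01, Srf and Vcl at 1.51, Acta2 at 0.78, Tagln at 0.75, Tpm1 at 0.25, Tpm2 at 0.09, Myl9 at -0.08 and Actb at -0.98 in the polysomal fraction.

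**Figure D5:**
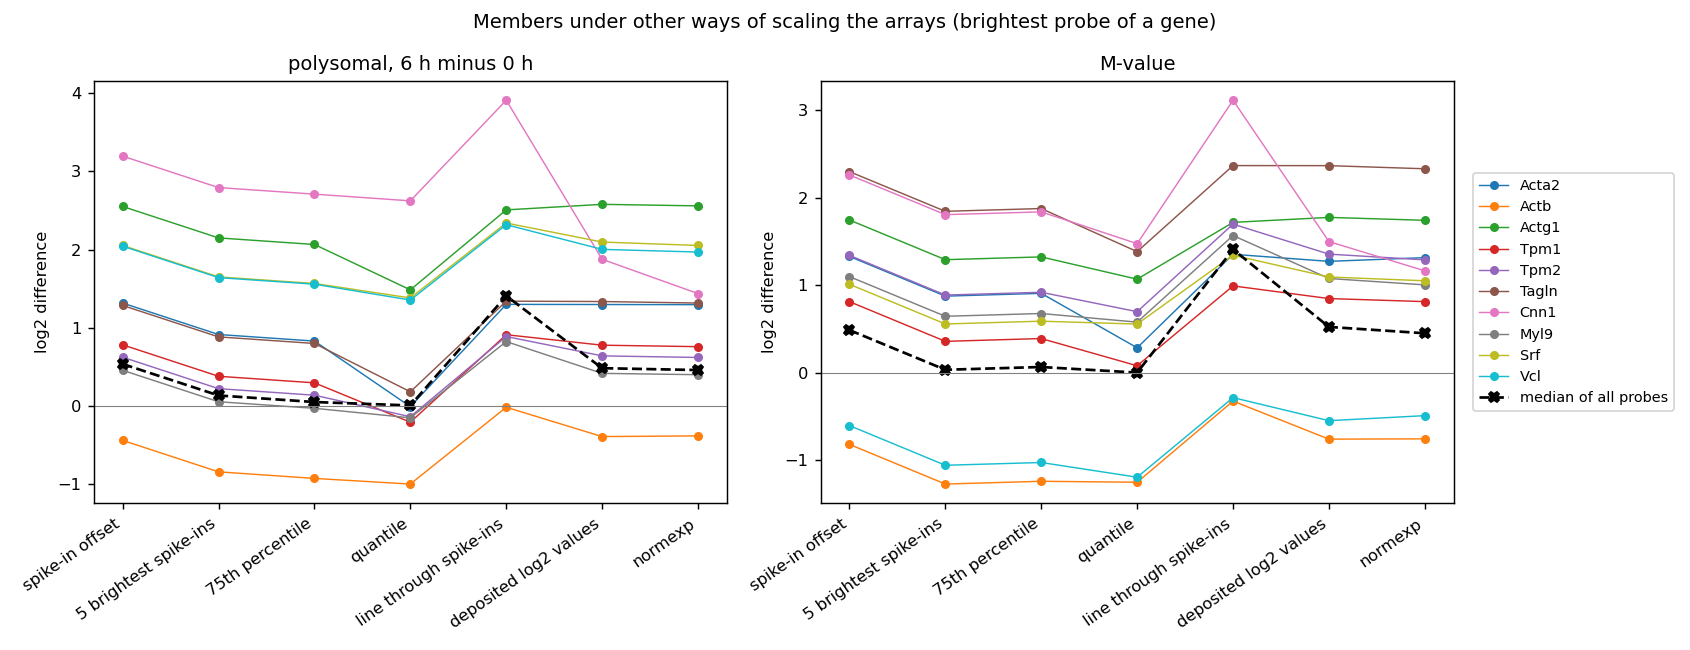
Log2 difference (y axis) of the brightest probe of each gene from 0 h to 6 h in the polysomal fraction (left) and as M-value (right), under 7 ways of preparing the values (x axis); crosses are the median of all probes. The polysomal changes of Acta2, Tpm1, Tpm2 and Myl9 are at or below 0 with quantile normalization, that of Myl9 also with the 75th percentile, and those of Cnn1, Actg1, Srf and Vcl stay above 1.

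Other genes of actin and Srf biology were taken from 7 lists by role, 73 genes with 110 probes. Of these probes 81 rose and 18 fell in the polysomal fraction, against 50.7% and 11.7% of all probes, with a median of 1.03 against 0.54. In the non-polysomal fraction 64 rose and 19 fell, against 20.6% and 19.6% of all probes, with a median of 0.39 against 0.04. Of the 110 probes 106 were detected. Among the 25025 detected probes of the array 14183 rose and 4658 fell in the polysomal fraction. In the non-polysomal fraction 8173 of them rose and 7721 fell. The other actins, actinins and tropomyosins rose in both fractions on 8 of 8 probes. Their polysomal rise was 1.46 ± 0.06 for Actc1, cardiac alpha-actin, 1.80 ± 0.07 for Actn1 and 1.81 ± 0.08 for Actn4, the actinins that cross-link filaments, and 1.99 ± 0.07 for Tpm4, another tropomyosin.

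Of the probes for cofactors of Srf, 6 of 11 rose in the polysomal fraction, a share near the 50.7% of all probes, and none fell. Mrtfa read 10.85, 11.00 and 10.79 in np0, 13.29, 13.57 and 13.49 in p0, 11.56, 11.50 and 11.52 in np6 and 14.64, 14.41 and 14.73 in p6. Its polysomal rise was 1.15 ± 0.11 (2.22-fold, adjusted p = 7.18e-06) and its non-polysomal rise 0.64 ± 0.11 (adjusted p = 0.000657). Mrtfb, the second myocardin-related cofactor, rose by 1.46 ± 0.12 and 1.56 ± 0.12 on its brightest probe. Another Mrtfb probe rose by 0.81 and 1.66, and a dim one gave 0.55 (adjusted p = 0.272) and -0.20 (adjusted p = 0.779). The brightest Mrtfb probe lay on the other side of the gradient. Its polysomal signal was 6.10-fold lower than the non-polysomal one at 0 h and 6.52-fold lower at 6 h, while that of Mrtfa was 5.92-fold and 8.39-fold higher. Myocd, the cofactor of cardiac and smooth muscle, differed by 0.31 ± 0.27 in the polysomal fraction (adjusted p = 0.332), with 2 of 3 arrays of np0 and of p6 well above background.

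Of the other contractile genes 12 of 21 probes rose in the polysomal fraction, again near the 50.7% of all probes, and 6 fell, where 11.7% of all probes did. Csrp1 (1.95 ± 0.07), a LIM protein of smooth muscle, the myosin light chain gene Myl12a (1.83 ± 0.08) and the smoothelin gene Smtn (1.78 ± 0.08) rose, and Lmod1, which starts actin filaments in smooth muscle, fell by 1.46 (adjusted p = 2.25e-07). Of the focal adhesion genes and other targets of Srf and its cofactors, 20 of 29 probes rose and 7 fell, against the same 50.7% and 11.7%. Ccn2, connective tissue growth factor, read 7.71, 7.79 and 7.64 in np0 and 9.22, 9.58 and 9.42 in p0, then 12.21, 12.05 and 11.95 in np6 and 14.39, 14.15 and 14.38 in p6. Every 6 h array stood above every 0 h array, with a 29.9-fold polysomal and a 20.5-fold non-polysomal rise (adjusted p = 1.02e-09 and 4.31e-09). The integrin gene Itga5 rose 13.0-fold and 14.2-fold, and Ccn1 5.38-fold and 2.82-fold. Ankrd1, a muscle stress gene, fell by 2.51 (SE 0.38, adjusted p = 0.000342) in the non-polysomal fraction. On polysomes it read 6.94, 7.06 and 7.28 at 0 h and 3.15, 3.29 and 4.79 at 6 h (adjusted p = 3.17e-05), with 1 of the 3 arrays at 6 h well above background, so no size is given.

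The genes of actin turnover rose on 17 of 17 probes in the polysomal fraction, where 50.7% of all probes did, among them Pfn1 (profilin, 1.57 ± 0.08), Capzb (a capping protein, 1.54 ± 0.09), Actr3 (of the Arp2/3 complex, 1.47 ± 0.09) and Tmsb4x (thymosin beta-4, which binds actin monomers, 1.45 ± 0.07). Tmsb4x was far higher in the non-polysomal fraction, 12.6-fold at 0 h and 12.8-fold at 6 h, while Actr3 was higher in the polysomal one, 4.15-fold and 9.93-fold. Of the immediate-early genes reached through ternary complex factors, 8 of 9 probes rose in the polysomal fraction and 1 fell, against 50.7% and 11.7%. Mcl1 (2.72 ± 0.08), Junb (2.32 ± 0.13) and Fos (2.23 ± 0.09) rose, and Egr1 fell by 2.15 on polysomes and by 2.22 off them (adjusted p = 2.23e-07 and 3.35e-07).

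The M-values of the further genes were called above 0 on 58 of 110 probes and below 0 on 11, against 32% and 4.01% of all probes, with a median of 0.52 against 0.49. Of the 25025 detected probes 11787 were called above 0 and 1568 below it, with a median of 0.48. Of the 110 probes, 24 were above and 38 below with quantile normalization, and 18 and 18 with the 5 brightest spike-ins. The median of 0.52 lay close to the background, unlike the 1.25 of the 19 member probes, and the difference between the lists was not tested.

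The probes most alike to a member over the 12 arrays were sought among 16583 bright probes. For Acta2 they were Wfs1, Aplp1, Mapk14, Ampd2 and Tpm1, with Pearson's r from 0.9995 to 0.9997. For Srf they were Bcl2l1, Foxk2, Tent4b, Avpi1 and Tmeff1 (r from 0.995 to 0.997). The nearest to Actb were Chd2, Akna, Fthl17e, Cab39l and Rexo5, with r of 0.843 to 0.878. The group means of Actb ran only from 9.82 to 10.37, against 12.83 to 16.44 for Acta2 and 10.41 to 12.46 for Srf. A narrow range lowers r, so the lower r of Actb does not by itself mark its pattern as unusual. The 12 arrays form 4 groups and share their slides, so these r describe the group means and carry no test.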

How the data were processed

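RNA of the 4 groups was hybridised to 12 Agilent arrays on 3 slides, each slide holding 1 replicate of every group. The scanner files deposited by the authors hold processed intensity values (Feature Extraction 10.7.1.1, background-subtracted). The authors' deposited log2 values equal the mean log2 median signal plus 1 constant per array, and served as an alternative. From the intensities, log2 was taken, outlier spots were left out, spots of a probe were averaged and arrays were scaled by the mean offset of 10 spike-in transcripts. The study's methods name spike-in normalization, while the mean offset and the outlier filter were chosen here. limma 3.58.1 (R 4.3.3) fitted 4 group means over all 12 arrays, with a limit of 0.05 on the adjusted p. Probes were named through their accession, and 64.8% of 41174 had a gene symbol. Replicates are those of the labels, called biological in the study's methods. Named genes were all members and, per list, at most 4 bright called genes with the widest polysomal change, plus Mrtfa, Mrtfb and Myocd. Members and lists were chosen with earlier results of these data known. The files hold no mean signal, so normexp (offset 50) used the median signal. Other scalings, filters and leaving out replicates were tried. The procedure was tested on simulated data. Elk1, Tgfb1i1 and Cd68 were not analysed here. The counts over all lists include 1 list that is not reported here on its own.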

Additional observations from a re-analysis of the deposited data

Results flagged for a closer look

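Under the main scaling, for the brightest probe of all 10 genes, the change over 6 h differed between the fractions by limma's test of the difference itself. The M-values were 1.33 for Acta2, -0.82 for Actb, 1.74 for Actg1, 0.81 for Tpm1, 1.34 for Tpm2, 2.30 for Tagln, 2.26 for Cnn1, 1.10 for Myl9, 1.01 for Srf and -0.61 for Vcl, with adjusted p from 2.32e-06 to 0.00268. Over all probes 32% passed the same test above 0 and 4.01% below it, and the median M-value was 0.49. Of the 25025 detected probes 11787 passed it above 0 and 1568 below it. The calls of Tpm1 and Vcl were lost under the settings named with the M-values above, and the dimmer Vcl probe was not called (limma, adjusted p = 0.719). Groups of 3 arrays were not searched for single outlying arrays.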

How the results depend on the processing

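Scaling moved the results most. With quantile normalization 10 member probes rose and 4 fell on polysomes, and 0 fell when a line was fitted to the spike-ins or with the 5 dimmest spike-ins. Scaling by the 5 brightest or the 5 dimmest spike-ins was chosen after seeing the data. At 6 h 3 member probes were called lower in the polysomal fraction with the 75th percentile and with quantile normalization, and 0 with the fitted line or the 5 dimmest spike-ins. At 0 h 1 was called lower with the 5 brightest, and 1 M-value was called below 0 with the 5 dimmest. Reversed were, with quantile normalization, the polysomal changes of Acta2 (-0.0077), Tpm1 (-0.21), Tpm2 (-0.14) and Myl9 (-0.15), the 0 h fraction difference of Actb (-0.62) and the 6 h fraction differences of Tagln (-0.87) and Srf (-0.68). With the 75th percentile Myl9 gave -0.029, Actb -0.62, Tagln -1.24 and Srf -0.65. Of the further genes, 28 probes fell in the polysomal fraction with the 75th percentile and 35 with quantile normalization. Their M-values were above 0 on 36 probes (75th percentile), 24 (quantile), 89 (fitted line), 18 (5 brightest) and 91 (5 dimmest), and below 0 on 29, 38, 1, 18 and 5. The cause was not tested. Over the fits that left out an array or a replicate number, member probes called lower in the polysomal fraction at 0 h numbered 1 to 3 and member M-values called below 0 numbered 1 to 2, and further M-values above 0 numbered 36 to 65 and below 0 7 to 12.

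With the replicate number as a block, 18 member probes were higher and 1 was lower at 6 h in the polysomal fraction, while 16 M-values were above 0 and 2 below, as without it, and no count changed by over 1.5 times. Deviations of same-numbered arrays of different groups correlated between -0.097 and 0.424, over 0.1 in 4 of 18 pairs. Those of differently numbered arrays of different groups correlated between -0.379 and 0.208, over 0.1 in 6 of 36 pairs. Each slide held 1 replicate number, so a pairing by number cannot be told apart from the shared slide.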
